A study of Mus musculus with 4 samples.

Results

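The 8 genes described here, Nkx2-1, Lhx6, Lhx8, Maf, Satb1, Sp8, Sp9 and Nr2f2, encode transcription factors of the medial ganglionic eminence (MGE) and its neighbors in the ventral telencephalon. They were chosen by name from 21853 protein-coding genes of the GENCODE M21 annotation, and every Foxr2-V5 peak that touched the gene or the 50 kb flanking it on each side was taken, with no minimum on its height. Binding was measured by CUT&RUN, in which an antibody tethers a nuclease to a protein so that the DNA around it is cut free and sequenced. The antibody was against the V5 tag, and each of the 4 samples held 500000 cells cross-linked with 0.1% formaldehyde for 1 min. The Foxr2 p53LOF group (2 replicates) was a neurosphere line from a brain tumor of a C57BL/6J mouse, made by in utero electroporation (IUE) of a piggyBac vector that expresses V5-tagged FOXR2 from the broadly active CAG promoter, with p53 targeted by CRISPR/Cas9. Its Foxr2 signal is that of an overexpressed, tagged protein. The V5 control group (2 replicates) came from a separate IUE tumor model on the same strain, which the labels call H3.3G34R and which lacks the tag. The groups therefore differ in tumor genotype as well as in the tag, and these cannot be told apart. No source used here says whether the replicates were separate cultures, so their spread may be technical.

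During forebrain development, Nkx2-1 specifies progenitors of the MGE. It acts upstream of the LIM homeobox genes Lhx6 and Lhx8, which direct cortical interneurons and cholinergic neurons respectively, and Maf and Satb1 act later, as MGE-derived interneurons mature. The zinc finger genes Sp8 and Sp9 are used across the ganglionic eminences, and Nr2f2 (COUP-TFII) marks the caudal eminence and the dorsal MGE. FOXR2 is a forkhead protein that is activated in a class of central nervous system neuroblastoma.

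The sequence at the highest peak of each gene window is printed here to show what DNA these peaks cover. Each run holds up to 150 bases around the summit, 5′ to 3′ on the strand of the named gene, read from GRCm38 (the assembly behind mm10). Where the highest summit left fewer than 100 bases outside untranslated exons, the next highest peak with enough was used, which applied to Maf (its peak far upstream) and Satb1. Capitals mark any of 10 short motifs spelled out with the motif counts.
Nkx2-1: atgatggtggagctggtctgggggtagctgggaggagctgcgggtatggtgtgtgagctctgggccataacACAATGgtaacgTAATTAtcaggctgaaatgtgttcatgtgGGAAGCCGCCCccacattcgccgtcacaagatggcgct
Lhx6: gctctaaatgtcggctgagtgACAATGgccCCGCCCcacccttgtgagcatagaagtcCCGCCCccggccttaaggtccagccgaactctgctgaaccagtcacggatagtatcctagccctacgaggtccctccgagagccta
Lhx8: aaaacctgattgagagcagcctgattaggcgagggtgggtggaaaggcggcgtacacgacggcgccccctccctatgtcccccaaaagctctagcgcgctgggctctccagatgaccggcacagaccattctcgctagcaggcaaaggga
Maf: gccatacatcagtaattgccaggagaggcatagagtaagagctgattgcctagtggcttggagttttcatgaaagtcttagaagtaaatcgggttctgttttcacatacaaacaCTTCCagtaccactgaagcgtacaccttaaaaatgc
Satb1: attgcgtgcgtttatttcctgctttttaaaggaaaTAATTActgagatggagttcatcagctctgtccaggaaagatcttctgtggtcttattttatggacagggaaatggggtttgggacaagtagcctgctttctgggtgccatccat
Sp8: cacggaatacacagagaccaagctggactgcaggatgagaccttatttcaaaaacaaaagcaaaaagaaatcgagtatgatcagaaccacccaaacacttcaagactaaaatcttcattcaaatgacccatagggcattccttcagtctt
Sp9: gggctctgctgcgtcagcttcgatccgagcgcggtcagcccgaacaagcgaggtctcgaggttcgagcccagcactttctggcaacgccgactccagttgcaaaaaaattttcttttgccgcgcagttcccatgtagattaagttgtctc
Nr2f2: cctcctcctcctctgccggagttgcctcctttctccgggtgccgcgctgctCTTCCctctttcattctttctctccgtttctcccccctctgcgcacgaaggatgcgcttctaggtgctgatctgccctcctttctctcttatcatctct
The runs lie at chr12:56525494-56525643 (minus strand) for Nkx2-1, chr2:36136774-36136917 (minus) for Lhx6, chr3:154332143-154332292 (minus) for Lhx8, chr8:115754301-115754450 (minus) for Maf, chr17:51811348-51811497 (minus) for Satb1, chr12:118811198-118811347 (plus) for Sp8, chr2:73312774-73312923 (plus) for Sp9 and chr7:70361452-70361601 (minus) for Nr2f2. The Lhx6 run lies beside the starts of Rbm18 and Mrrf, and the Sp9 run beside those of Cir1 and Scrn3. The Lhx8, Sp8 and Sp9 runs held none of the 10 motifs.

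The 8 windows, 105 to 197 kb long, held 17 of the 31909 peaks of Foxr2 p53LOF replicate 1 and 17 of the 38580 peaks of replicate 2. They held 0 of the 308 peaks of V5 control replicate 1 and 0 of the 124 of control replicate 2. The groups did not overlap, and the difference of 17 peaks per library had p = 0.333 in a two-sided exact permutation test over the 4 libraries, the smallest that 2 against 2 allow. Over all protein-coding genes, 1.05% had a peak of control replicate 1 in the window and 0.453% one of replicate 2, so the 0 of 8 in the controls is close to the background.

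Replicate 1 had a peak in 8 of the 8 windows, beside 77.5% of all protein-coding genes, and replicate 2 in 7 of 8, beside 78.0%. A peak of one replicate was called shared where it overlapped a peak of the other by at least 1 bp. Shared peaks lay in the windows of 5 genes, Lhx6, Maf, Satb1, Sp9 and Nr2f2, against 74.6% of all genes. Among genes whose windows were as long as those of the 8, the background was 77.5%. These shares were above the background by one replicate and below it when both replicates were required, and over 8 genes no difference from the background can be read from them.

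**Figure D1:**
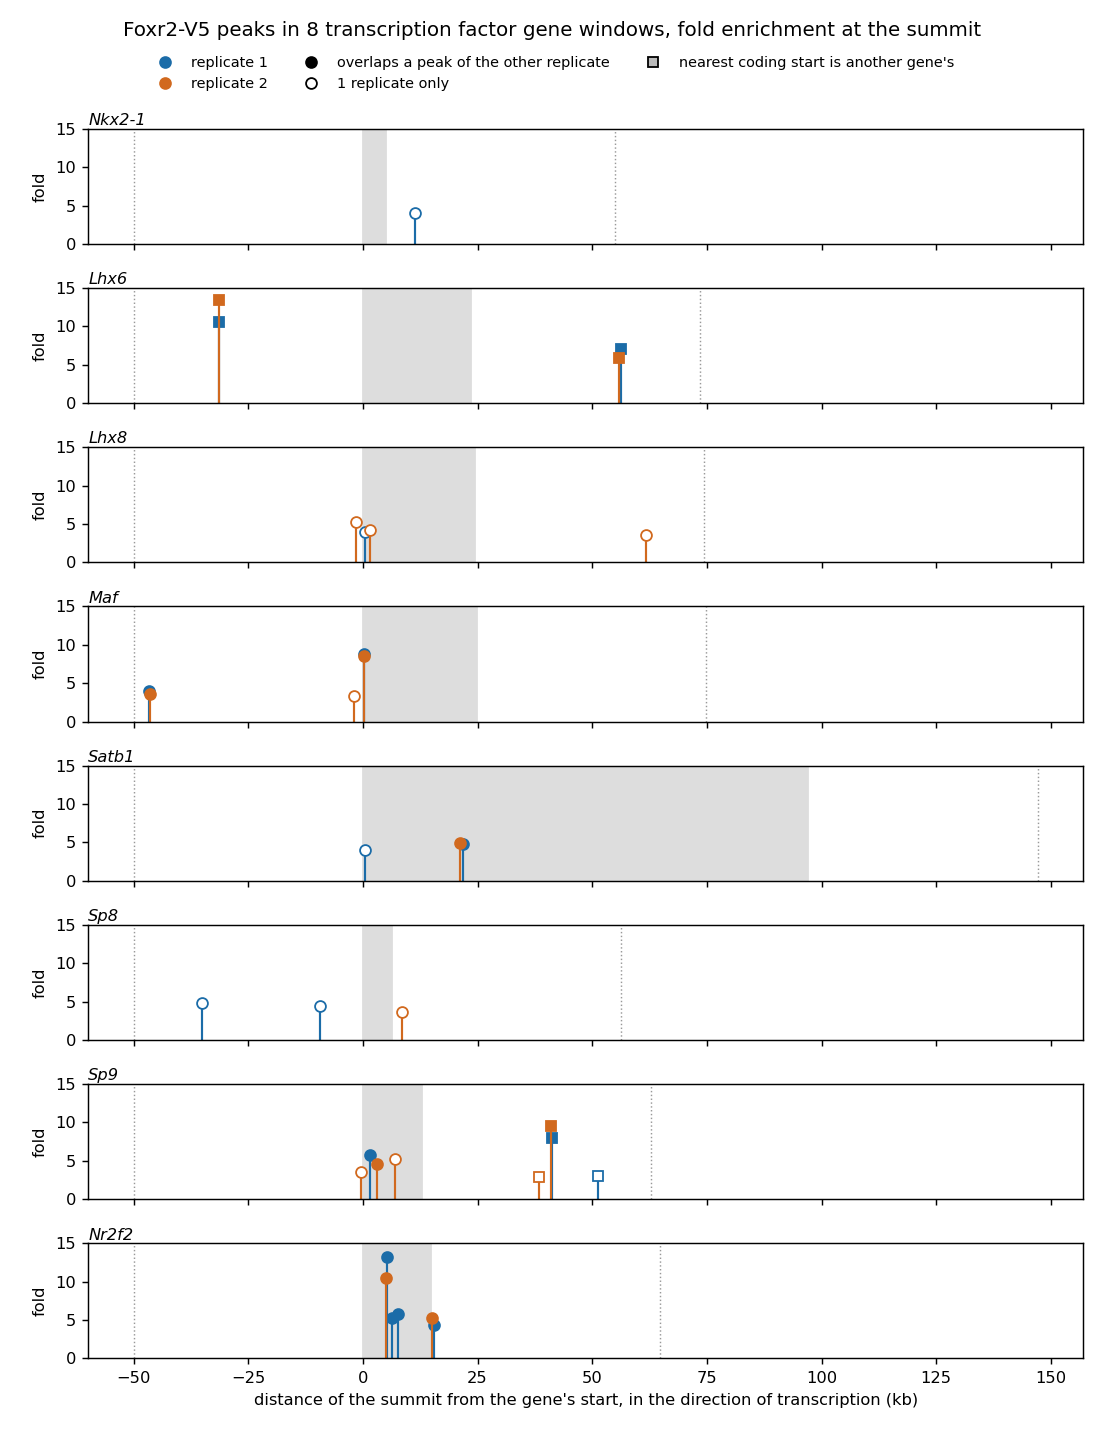
Foxr2-V5 peaks in the windows of the 8 genes. The x axis is the distance of the summit from the gene's start in kb, in the direction of transcription, and the y axis the fold enrichment; gray marks the gene body, dotted lines the window, filled symbols shared peaks, and squares peaks whose nearest protein-coding start belongs to another gene. Both shared pairs of Lhx6 are squares, over 31 kb from the gene.

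The height of a peak is its fold enrichment, the fragments at the summit plus 1 over the background of the library plus 1. In the windows it ran from 3.09 (6 fragments) to 13.3 (29 fragments) in replicate 1 and from 2.96 (8 fragments) to 13.5 (40 fragments) in replicate 2. The median fold of the peaks in the windows was 4.86 in replicate 1 and 4.93 in replicate 2, where all peaks of those libraries had 5.30 and 4.93. The highest fold per window had a median of 6.41 and 6.90 over the 8 genes and of 9.28 and 10.5 over all genes, counting a gene without a peak as 0. The 8 genes were in the lower or middle part of the distribution. The highest was Nr2f2 in replicate 1, above 69.5% of genes (49.4% in replicate 2), and in replicate 2 it was Lhx6, above 61.2% (56.9% in replicate 1). The peaks were 16.9 per Mb of window in each replicate, with 11.7 and 14.1 per Mb of genome, but the windows are set around genes, so counts per window are the closer comparison. The median window of any protein-coding gene held 3 peaks in each replicate and the median of the 8 genes was 2.

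**Figure D2:**
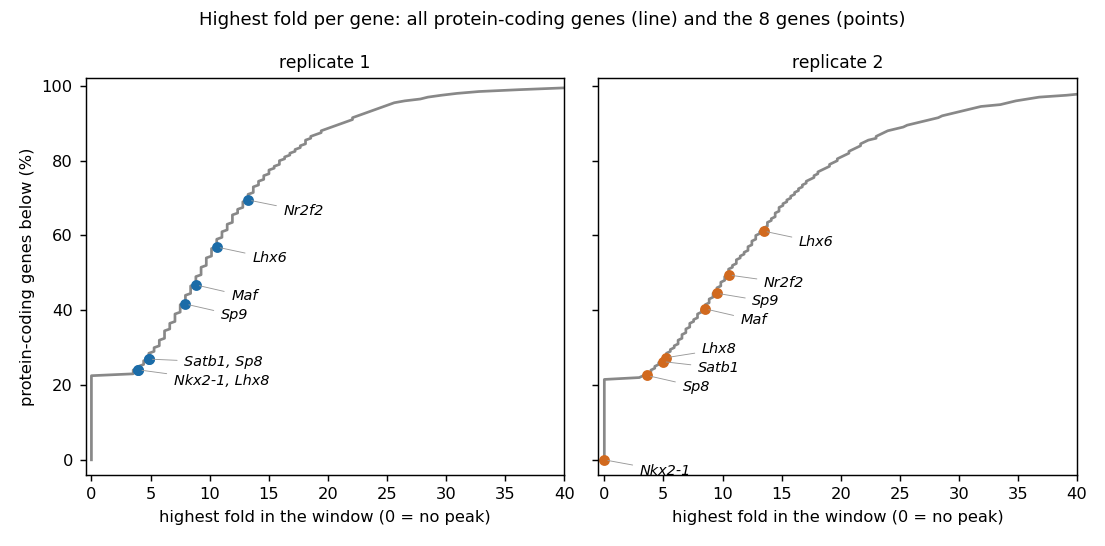
Highest fold in the window of each gene. The x axis is the highest fold (0 where there is no peak), the y axis the percent of 21853 protein-coding genes below it, the line all genes and the points the 8 genes, by replicate. Nkx2-1, Lhx8, Satb1 and Sp8 lie below 28% of the distribution in both replicates.

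Nkx2-1, the gene that specifies the MGE, had the least signal. Its window held 1 peak in replicate 1, at chr12:56525306-56525734, and 0 in replicate 2. The fold was 3.98, from 8 fragments, with a 95% Poisson interval of 1.97 to 7.41 that covers counting error only. The summit lay 6389 bp past the downstream end of the gene and 9537 bp from its nearest start. No peak of either replicate lay in the body or at a start of Nkx2-1.

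For Lhx6, the LIM homeobox gene that depends on Nkx2-1, each replicate had 2 peaks in the window and both were shared, yet none was near the gene. The first shared region, chr2:36048940-36049881, had folds of 7.07 and 5.91 and covered the starts of Ndufa8, a gene of mitochondrial complex I, and Morn5, which run in opposite directions. The second, chr2:36135649-36137779, had folds of 10.6 and 13.5 and covered the opposed starts of Rbm18 and Mrrf, a mitochondrial ribosome recycling factor. The summits lay 32747 and 32377 bp past the end of Lhx6 for the first region, and 31370 and 31435 bp upstream for the second. Counting only peaks whose nearest protein-coding start was its own, Lhx6 had none in either replicate.

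Lhx8, which directs cholinergic neurons, had 1 peak in replicate 1 and 3 in replicate 2, none shared. The replicate 1 peak, chr3:154329716-154330268, had a fold of 3.98 and its summit 114 bp from a start of Lhx8. Replicate 2 had peaks on both sides of it, with folds of 4.27 at 154328174-154329287 and 5.26 at 154330274-154332447. These were 428 bp and 5 bp away from the replicate 1 peak, so both replicates had signal at the start of Lhx8 but no peaks that overlapped. The third peak of replicate 2 (3.61-fold) lay 37409 bp past the end of the gene, in an intron of Slc44a5.

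Of the genes of interneuron maturation, Maf, a bZIP factor, had a promoter peak in both replicates. Its fold was 8.84 (19 fragments, interval 5.50 to 13.6) in replicate 1 and 8.54 (25 fragments, 5.64 to 12.5) in replicate 2, a mean of 8.69 ± 0.209 (SD, n = 2). The region, chr8:115706506-115708704, spanned the start of Maf, and the summits were 10 bp apart in untranslated exon, 312 and 322 bp from that start. A second shared region, chr8:115753769-115754488, lay 46582 and 46442 bp upstream with folds of 3.98 and 3.61. A peak of replicate 2 alone, 3.29-fold, lay 1938 bp upstream.

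Satb1, a chromatin organizer, had 1 shared region, at chr17:51811056-51813902, with folds of 4.86 and 4.93 (mean 4.89 ± 0.0479, n = 2). Without the added 1, the fragments over background were 7.91 and 6.85, further apart and in the other order. Both peaks covered an internal start of Satb1 at position 51812680, over 20 kb into the gene. The summits were 745 bp apart and had different nearest starts: that of replicate 2 was 512 bp from the covered start, while that of replicate 1 was 1257 bp from it and 504 bp from another start, at 51810919, outside the peak. At the first start only replicate 1 had a peak (3.98-fold, 80 bp from a start). The Satb1 folds were below the Maf folds in both replicates, but their counting intervals overlapped (2.56 to 8.57 and 2.84 to 8.05 for Satb1).

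Among the zinc finger genes, Sp8 had no shared peak. Its 2 peaks in replicate 1, with folds of 4.86 and 4.42, lay 35056 and 9260 bp upstream, and the 1 in replicate 2 (3.61-fold) 2307 bp past the end of the gene. Sp9 had 3 peaks in replicate 1 and 5 in replicate 2. The highest Sp9 region, chr2:73311999-73314337 (7.95 and 9.53-fold), was over 28 kb past the gene, at the opposed starts of Cir1 and Scrn3. Inside Sp9, a shared region at chr2:73273263-73275310 had folds of 5.74 and 4.60, with summits 1507 bp apart, in coding exon in replicate 1 and untranslated exon in replicate 2. Replicate 2 alone had peaks 462 bp upstream of the Sp9 start (3.61-fold) and in an intron (5.26-fold).

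Nr2f2, an orphan nuclear receptor, had the highest fold of the 8 genes when only peaks nearest to a gene's own starts were counted. A shared region of chr7:70358496-70362836 was 3 peaks in replicate 1, with folds of 13.3, 5.74 and 5.30, and a single peak of 4327 bp in replicate 2, with a fold of 10.5. The highest summits were 163 bp apart, in an intron 934 and 1097 bp from the nearest start of Nr2f2. The mean highest fold was 11.9 ± 1.94 (SD, n = 2). A second shared region, chr7:70350703-70352656, lay at the downstream end of Nr2f2 with folds of 4.42 and 5.26.

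By peaks whose nearest start was the gene's own, the highest folds in replicates 1 and 2 were 13.3 and 10.5 for Nr2f2, 8.84 and 8.54 for Maf, and 5.74 and 5.26 for Sp9. Satb1 had 4.86 and 4.93, Lhx8 3.98 and 5.26, Sp8 4.86 and 3.61, Nkx2-1 3.98 in replicate 1 alone, and Lhx6 no such peak. For Sp9, Lhx8 and Sp8 the highest peaks of the replicates did not overlap, so their values are not from the same site. The intervals of Nr2f2 (9.02 to 18.8 and 7.25 to 14.8) overlapped those of Maf, so these neighbors in the order were not separated by their counting error. The order of the lower genes differed between replicates.

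**Figure D3:**
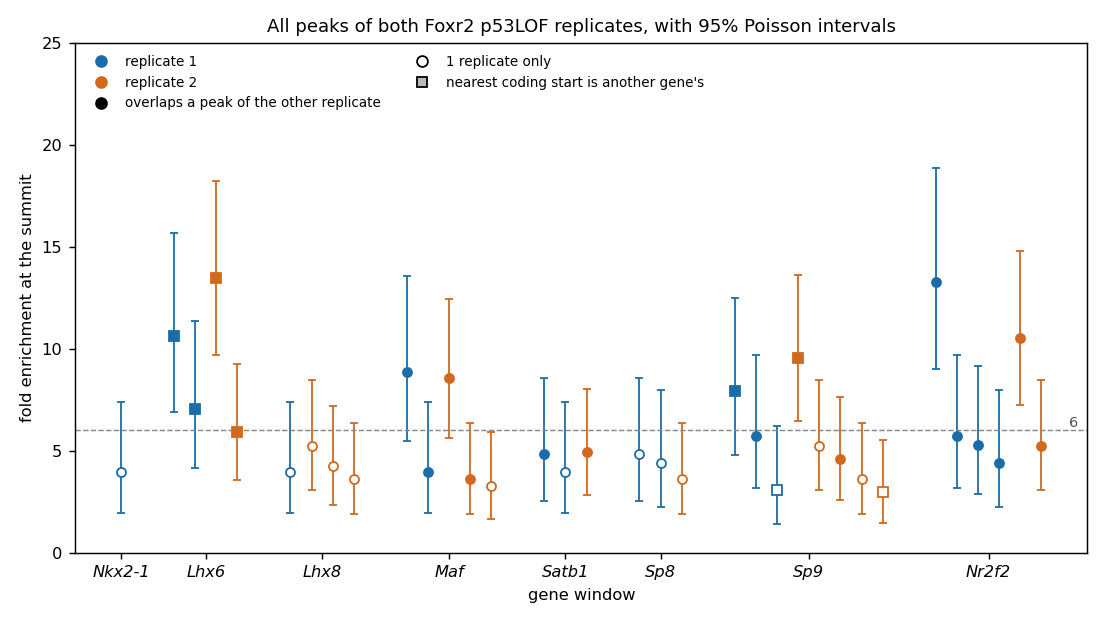
Fold enrichment at the summit of the 34 peaks in the 8 windows. Each point is a peak with its 95% Poisson interval from the fragments at the summit (y axis, fold), grouped by gene window (x axis); the dashed line marks the minimum fold of 6 in the study's filter. Peaks found in 1 replicate reach 5.26 at most.

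In all, the windows held 9 shared regions, and at all 9 the intervals of the folds of the replicates overlapped. The fold was higher in replicate 2 at 4 of the 9. The 14 peaks that were not shared had folds up to 5.26 and at most 15 fragments at the summit. The peak filter in the study's methods asked for −log10 q above 6, fold above 6, under 10000 bp and no overlap with control peaks. Both replicates passed it at 4 of the 9 regions, 1 each in the windows of Lhx6, Maf, Sp9 and Nr2f2. The study then also required open chromatin (ATAC peaks) in the same mouse model, a step not run here. The regions of Lhx6 and Sp9 lay at the starts of other genes. By window, 4 of 8 genes had such a region, against 64.7% of all genes.

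By the place of the summit, 8 of the 17 peaks of replicate 1 lay inside 1 of the 8 genes and 9 outside, and in replicate 2 the split was 6 and 11. Of those inside, introns held 5 in replicate 1 and 3 in replicate 2, untranslated exons 2 and 3, and coding exons 1 and 0. A peak reached within 1 kb of a start of the gene itself in 7 of 17 in replicate 1 and 6 of 17 in replicate 2. Over the windows of all protein-coding genes, counting a peak once in each window that holds it, 25.4% and 24.9% of peaks had the summit inside the gene and 16.6% and 14.2% reached a start of it. Gene-dense regions weigh more in these shares, and 4 of the 8 windows hold no other protein-coding gene. The peaks were 421 to 2847 bp long in replicate 1 and 359 to 4327 bp in replicate 2, the longest being those at the Satb1 internal start and at Nr2f2. None overlapped a peak of either V5 control replicate, where 0.567% of all peaks of replicate 1 and 0.441% of replicate 2 did, so the count of 0 is close to the background.

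A shared peak within 1 kb of a start of the gene itself was present for 3 of the 8, Maf, Satb1 and Nr2f2, against 51.1% of protein-coding genes. Each of the 8 genes, at its start with the highest ratio of observed to expected CpG in 1 kb, was above the median of all genes. The background was therefore also taken over genes at or above the lowest of the 8 in this ratio. This background depended on which start was measured, and the cutoff, set by the lowest of the 8, changed with it. At the outermost start of each gene the cutoff was 0.258, the ratio of Nr2f2, and the background was 68.7% of 15432 genes. That low cutoff admitted most of the 21853 genes, so the 68.7% is not a background of CpG-rich genes. At the start with the highest ratio the cutoff was higher, and the background was 88.1% of 8702 genes. Both measures were chosen after the peaks were seen, the second after the outermost start of Nr2f2 gave a low ratio (0.258), so they are given as descriptions. The gene's own start was the nearest to a shared peak for 4 of 8 (Maf, Satb1, Sp9 and Nr2f2), beside 52.3% of all genes, and for 2 of 8 (Maf and Nr2f2) with the filter as well, beside 38.0%.

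**Figure D4:**
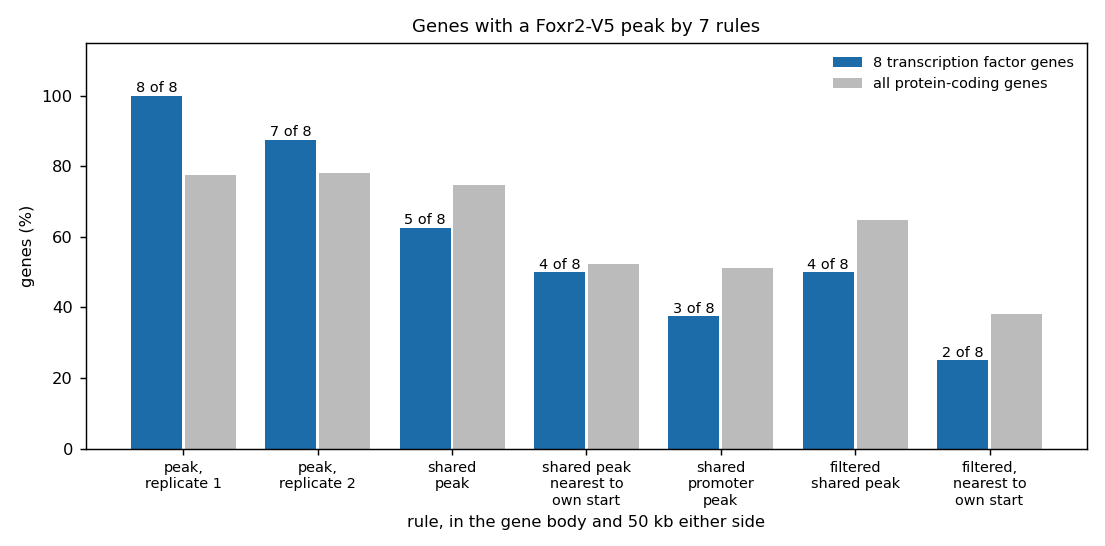
Percent of genes with a Foxr2-V5 peak (y axis) by 7 rules (x axis), for the 8 genes (blue, counts above the bars) and all 21853 protein-coding genes (gray). The 8 genes exceed the background in the first pair of rules alone, which take a peak of a single replicate.

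A list of 22 other transcription factor genes of the ventral telencephalon, chosen for their roles, was counted by the same rules. A peak was present in 21 of the 22 in each replicate (77.5% and 78.0% of all genes), a shared peak in 20 (74.6%) and a shared promoter peak in 16 (51.1%). A shared peak past the filter was present in 11 of the 22, below the 64.7% of all genes. The list therefore lay above the background by the first rules and below it by the last. These backgrounds were not matched to the 22 genes for CpG or window length, and no difference was tested. The highest 4 by the lower fold of a shared peak were Npas1 (23.0 and 28.3, nearest to a start of Zc3h4), Sox6 (18.6 and 24.3), Nr2f1 (17.7 and 16.4) and Sox11 (16.3 and 18.7). Nr2f1 is the paralog of Nr2f2 and its folds were above those of Nr2f2 in both replicates. Otx2 had peaks in both replicates but none shared. Windows in the Dlx clusters overlap, so some of these genes count the same peaks.

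Exact letters of 10 motifs were searched on both strands, in 200 bp centered on each summit. They were the ETS core CCGGAA, its short form GGAAG (which can overlap the core), SOX ACAAAG and ACAATG, forkhead TAAACA, homeobox TAATTA, NKX2 CAAGTG, E-box CAGCTG, nuclear receptor AGGTCA and SP box GGGCGG. The SP box was in 8 of the 17 window peaks of replicate 1 and 1 of 17 of replicate 2, where all peaks had 14.8% and 12.5%. Homeobox letters were in 3 and 0 of 17, against 4.58% and 4.95% of all peaks. The forkhead letters were in 0 and 1 of 17, against 11.8% and 13.3%, and the short ETS form in 9 and 6 of 17, against 51.4% and 50.7%. These counts depended on the stretch searched. Over the whole length of the peaks the SP box was in 14 of 17 in each replicate, against 41.4% and 36.6% of all peaks, so the replicates differed around the summit and not over the whole peak. The homeobox letters were then in 5 and 4 of 17, against 23.1% and 25.7%, the forkhead letters in 5 and 8 of 17, against 47.8% and 50.8%, and the short ETS form in 17 and 16 of 17, against 90.4% and 89.4%. The nuclear receptor letters were in 0 and 1 of 17 around the summit, against 10.2% and 10.4%, and in 3 of 17 in each replicate over whole peaks, against 44.3% and 46.3%. The other motifs (ETS core, both SOX forms, NKX2 and E-box) were in 0 to 3 of 17 around the summit, against 5.02% to 16.9% of all peaks, and in 4 to 10 of 17 over whole peaks, against 25.5% to 61.1%. The window peaks were not compared with peaks of the same length. The GC content of the 200 bp had a median of 58.0% in replicate 1 and 50.0% in replicate 2, against 49.0% and 47.5% of all peaks. The part of GC content in the motif counts was not tested.

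**Figure D5:**
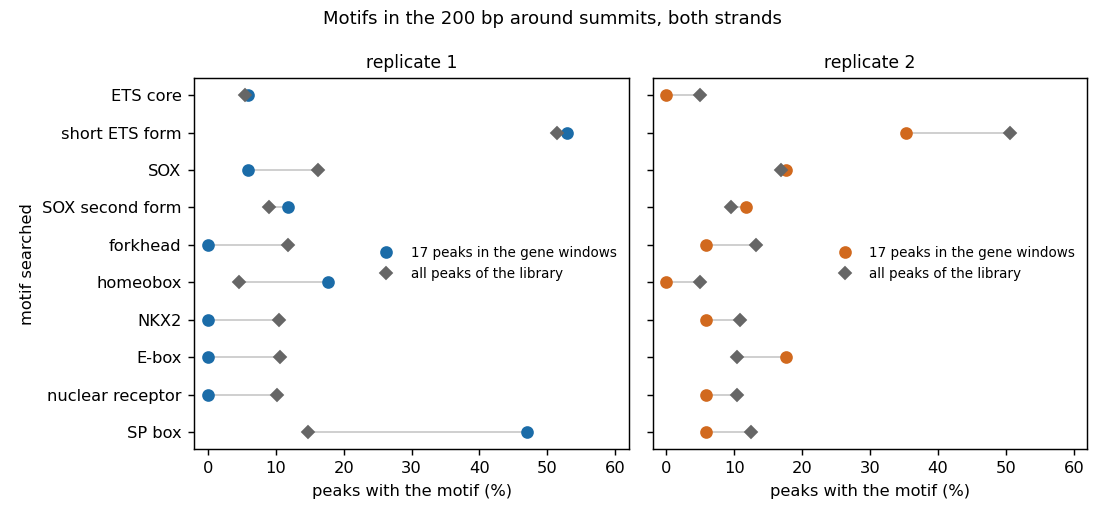
Percent of peaks with each of 10 motifs in the 200 bp around the summit (x axis), for the 17 peaks in the gene windows (circles) and all peaks of the library (diamonds), by replicate. The SP box stands far from the background in replicate 1 (47.1% against 14.8%) and not in replicate 2 (5.88% against 12.5%).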

How the data were processed

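CUT&RUN peaks of 2 Foxr2 p53LOF and 2 V5 control libraries were used, grouped by their labels. The submitters' processing notes name Trimmomatic 0.39, BWA 0.7.17, Picard 2.26.6, HOMER 4.11 and MACS2 2.2.7.1, with mm10. Peaks were called library by library, so replicates were not pooled. For each peak the authors deposited a MACS2 fold enrichment (a ratio to background), its −log10 p and its −log10 q, and a score that was not used further. The last column gives the summit.

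A peak list holds no read total. The background of each library was found on a grid (0.3 to 4, step 0.0005) as the value that makes folds whole fragment numbers (within 0.02, checked on folds up to 30 in a sample of each long list) and matches the deposited p-values. The depth behind a fold is its fragment number, with an exact 95% Poisson interval. The search, the sharing of peaks, the windows and the motifs were tested on simulated data. Python 3.11.15, numpy 2.4.6, scipy 1.17.1 and pysam 0.24.0 were used, with GRCm38 and GENCODE M21, and positions count from 1.

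The genes and lists were chosen with earlier results of these data known. The text names the 8 genes, other protein-coding genes with a start within 1 kb of a peak in their windows, and the 4 of 22 related genes with the highest lower fold; Slc44a5, Zc3h4 and Otx2 were named after their values were seen. One gene of that list is counted in its totals, but its own values are not reported here. The rule for printed sequences, the CpG, window-length and peak-place backgrounds and the counts by nearest own start were also added after the data were seen. An earlier pass used the CpG ratio at the outermost start and a hand-picked set of sequences. Comparisons are descriptions, apart from the permutation test of peaks per library. Alternatives covered the window, the filter, the overlap, the promoter, the nearest start, the motif window and each replicate left out.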

Additional observations from a re-analysis of the deposited data

How the results depend on the processing

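The difference of 17 peaks per library between Foxr2 p53LOF and V5 control ranged from 4.5 with the filter of the methods to 23.0 with 100 kb on either side, and was 17 without any 1 replicate. The control libraries held 0 peaks in the main windows, so its sign could not turn under a filter or a left-out replicate, and neither the sign nor the exact permutation p of 0.333, the smallest possible, says anything about stability. With a replicate block the difference was 17 with an exact p of 0.5, the smallest for 2 pairs; whether the replicate numbers pair the samples was not checked, since the control lists hold no peak in these windows.

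The counts over the 8 genes also moved. The 9 shared regions became 5 with 10 kb on either side, 5 in the gene body alone, 5 with the minimum −log10 q alone and 4 with the filter. The 8 genes with a peak in replicate 1 became 5 in the gene body alone, 4 with the filter and 4 with the minimum −log10 q alone, and the 7 of replicate 2 became 4 with the filter. The 3 genes with a shared promoter peak became 1 when 50% of both peaks had to overlap. With the filter and the nearest own start together, tried only after seeing the data, 2 genes with a shared peak and 2 shared regions were left. The other 59 alternative values of these counts and of the difference lay within 1.5 times the main value or kept its direction. Some of them could not move. No window peak overlapped a control peak, so removing control overlaps or leaving out a control replicate changed nothing. The difference was counted by its direction alone. The 59 is therefore no measure of stability. With 10 kb on either side, Lhx6 had no peak and the highest Sp9 folds were 5.74 and 5.26.

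Most window peaks rest on few fragments, 6 to 40 at the summit, and whether a peak missing in 1 replicate was below detection was not tested; 2 replicates a group limit every comparison.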
